A study of Mus musculus with 10 samples.

Results

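The genes described here are folliculin and its partners (Flcn, Fnip1 and Fnip2), the Rag GTPases Rraga, Rragc and Rragd, and the MiT-TFE transcription factors Tfeb, Tfe3 and Mitf. They were chosen by name, with results of the same comparison in these data already known, as rows of the deposited expression table, and all 9 were among its 17493 genes. Their levels were measured by RNA sequencing of polyadenylated RNA in mouse Th17 cells, the helper T cells that make IL-17. One group received TMP269, an inhibitor of the class IIa histone deacetylases, and the control group DMSO. Naive CD4+ T cells from C57BL/6 spleens had been stimulated through CD3 and CD28 with 20 ng/mL of IL-6 and 2.5 ng/mL of TGF-beta, in cultures of 48 to 72 h. TMP269 was added before harvest, and the sources used here do not give its dose, the length of exposure or the age of the mice. Each group had 2 libraries, and the labels do not say whether these came from separate animals or cultures, so the error measures only the spread between these libraries, which may be technical. WT is the name of the DMSO columns in the table, as the labels of the DMSO samples say.

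On the lysosome, the Rag GTPases report the supply of amino acids. A RagA or RagB protein pairs with a RagC or RagD protein, and the active dimer brings the growth kinase complex mTORC1 to the lysosomal surface. Folliculin with FNIP1 or FNIP2 acts on RagC and RagD as a GTPase-activating complex, and this step lets mTORC1 phosphorylate TFEB and TFE3, which then stay in the cytoplasm. When they are released they enter the nucleus and switch on lysosomal and autophagy genes through E-box elements with the core CACGTG, and FLCN and RRAGD are themselves known targets of these factors. The levels below are of RNA and say nothing of where the proteins were or how they were phosphorylated.

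Promoter sequences of 3 of the genes that were higher with TMP269 are shown because TFEB and TFE3 read this core. They come from RefSeq on GRCm38.p6, 250 bases before to 50 after a transcription start, 5′ to 3′ on the gene's strand, in lower case with any CACGTG in capitals. The Flcn window lies at chr11:59809990-59810289 on the minus strand, the Fnip1 window at chr11:54437929-54438228 on the plus strand and the Rragc window at chr4:123917183-123917482 on the plus strand.
Flcn: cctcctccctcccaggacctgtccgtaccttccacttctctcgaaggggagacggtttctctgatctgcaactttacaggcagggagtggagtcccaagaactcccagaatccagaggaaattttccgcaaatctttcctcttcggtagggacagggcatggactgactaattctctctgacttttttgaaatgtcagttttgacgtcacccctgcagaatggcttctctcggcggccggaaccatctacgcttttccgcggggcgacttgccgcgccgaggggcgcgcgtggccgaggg
Fnip1: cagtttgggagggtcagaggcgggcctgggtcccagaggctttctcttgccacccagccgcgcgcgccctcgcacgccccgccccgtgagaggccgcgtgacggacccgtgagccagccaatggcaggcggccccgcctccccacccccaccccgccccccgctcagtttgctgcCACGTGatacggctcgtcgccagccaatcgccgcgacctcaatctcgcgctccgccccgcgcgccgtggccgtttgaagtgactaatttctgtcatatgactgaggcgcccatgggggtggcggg
Rragc: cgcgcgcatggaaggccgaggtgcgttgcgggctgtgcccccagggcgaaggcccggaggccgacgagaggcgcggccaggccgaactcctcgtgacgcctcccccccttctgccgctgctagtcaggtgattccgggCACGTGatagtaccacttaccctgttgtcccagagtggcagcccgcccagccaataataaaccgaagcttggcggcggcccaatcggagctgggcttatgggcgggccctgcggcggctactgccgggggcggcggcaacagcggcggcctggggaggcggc
The RefSeq table held 14 windows for the 9 genes. CACGTG, which reads the same on both strands, was present in 2 of the 14, its first base 75 bases before the Fnip1 start and 112 bases before the Rragc start. It was present in 7.15% of all 32841 windows of 300 bases in that table. The windows of Rragd and Tfe3, also higher with TMP269, held no CACGTG and are not shown. The M-box core CATGTGA, searched on both strands, was in 0 of the 14 windows and in 3.99% of all windows. A match of letters is a description and does not show a binding site.

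Library depth was 20007042 to 25321455 reads. The ribosomal RNA gene Rn45s took 2.20% of the reads of DMSO replicate 2 and 0.716% to 1.12% of the others, so DMSO replicate 2 stood apart. The limma fit covered 12535 genes and used a threshold of 0.05 on the Benjamini-Hochberg adjusted p. It called 27.5% of them, with 12.8% higher and 14.7% lower in TMP269. The helper T cell genes Cd4 and Cd3e had means of 8281 and 4459 normalised reads in DMSO. The summed level of 6 B cell markers was 3341 to 3507 normalised reads in DMSO and 1945 to 2022 with TMP269, lower for all 6, and in a bulk sample fewer cells of a type and less RNA per cell cannot be told apart. The summed level of 4 dendritic cell markers was 318 to 408 normalised reads in DMSO and 182 to 195 with TMP269. By group means 1 of them, Flt3, was lower (log2 fold change -1.99) and 3 were higher, none of these called. The 4 markers of cytotoxic T and NK cells summed to 300 to 393 in DMSO and 316 to 429 with TMP269. The part of RNA of these cell types in the values below was not tested. Of 5 markers of mast cells, a lineage in which Mitf is a known regulator, Cpa3, Fcer1a, Tpsb2 and Mcpt4 were at 0 or 1 read in every library, while Kit, a receptor gene also used by other blood cells, was at 231 and 308 normalised reads in DMSO and at 223 and 312 with TMP269. The melanocyte marker Tyr was at 43.2 and 31.4 normalised reads in DMSO and at 49.6 and 47.5 with TMP269. Pmel, another such marker, was at 45.9 and 37.4 in DMSO and at 42.4 and 48.4 with TMP269. Neither was called.

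In cells with TMP269, Flcn, Fnip1, Rragc, Rragd and Tfe3 were higher and Rraga and Tfeb were lower, while Fnip2 and Mitf were not called. Of the 9 genes, 5 (higher, against 12.8% of all tested genes) and 2 (lower, against 14.7%) passed the threshold in the fit over all genes. Leaving out any 1 of the 4 libraries left 3 called higher, and 1 was called lower without DMSO replicate 1 or without TMP269 replicate 1. Because these genes were chosen with results of this comparison known, their calls are a description and no p-values are given for them. The libraries of the groups did not overlap for 7 of the 9, as for 66.6% of all tested genes. The median log2 fold change of the 9 was 0.24, and that of all tested genes was -0.00365.

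**Figure D1:**
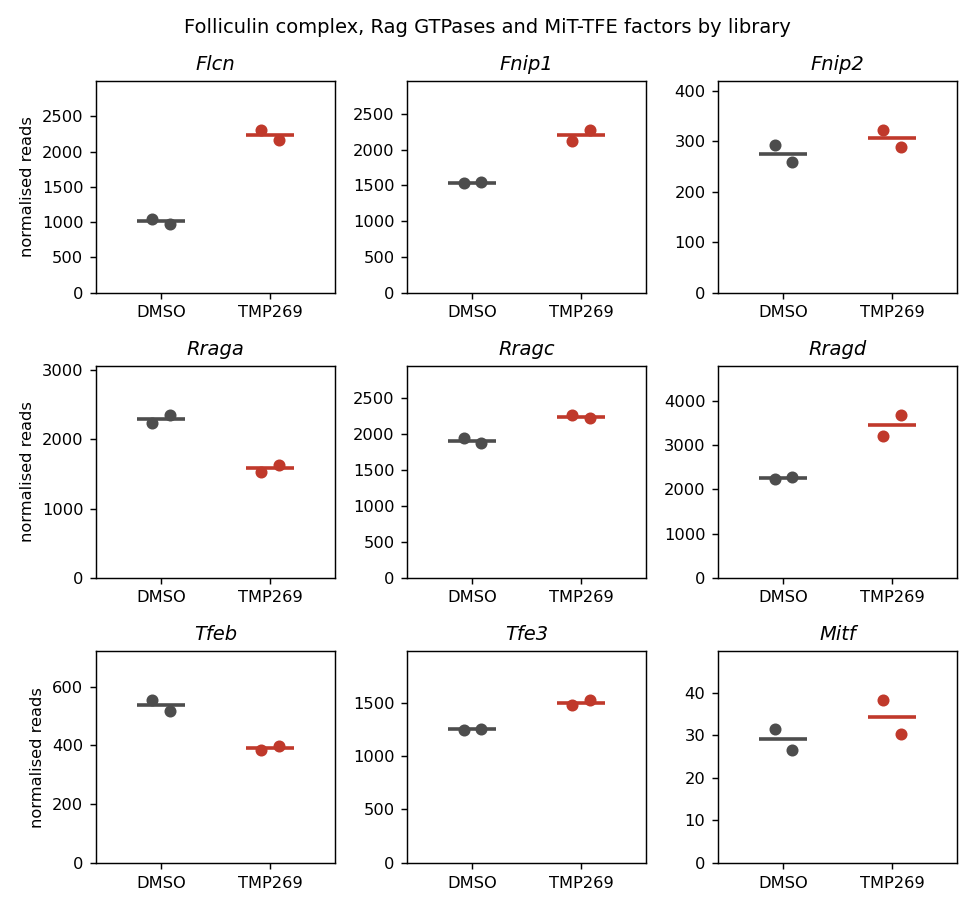
Normalised reads (vertical axis, from 0, a separate scale per gene) of the 9 genes in the 2 DMSO and 2 TMP269 libraries. Points are libraries and bars are group means; Flcn lies at 973 and 1046 in DMSO and at 2162 and 2307 with TMP269, whereas the Fnip2 and Mitf points overlap between groups.

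Flcn encodes folliculin, the tumour suppressor lost in Birt-Hogg-Dubé syndrome. It was at 1046 and 973 normalised reads in DMSO replicates 1 and 2 and at 2307 and 2162 in TMP269 replicates 1 and 2. Both TMP269 libraries were therefore far above both DMSO libraries. The means were 1009 ± 51.0 and 2234 ± 103 (SD, n = 2), a 2.21-fold difference and a log2 fold change of 1.15 ± 0.08 (SE). This was the largest change among the 9 genes by absolute log2 fold change, and 96.5% of all tested genes had a smaller one. It stayed between 1.09 and 1.197 with any 1 library left out.

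Fnip1, the partner of folliculin that is required for B cell development, was at 1528 and 1552 normalised reads in DMSO and at 2127 and 2278 with TMP269. The groups did not overlap, and the DMSO libraries were almost level. The log2 fold change was 0.51 ± 0.08 (SE), or 1.43-fold. Fnip2, the other partner, was at 292 and 258 normalised reads in DMSO and at 322 and 289 with TMP269. Its lower TMP269 library was below the higher DMSO library, and the gene was not called. Its log2 fold change was 0.15, with a 95% interval of -0.15 to 0.46, so its direction was not resolved. A gene model, Gm17359, overlaps Fnip2 on the reference and is also in the table. How reads of overlapping genes were counted is not given in the sources used here.

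Among the Rag GTPases the RagA gene moved against the RagC and RagD genes. Rraga was at 2231 and 2352 normalised reads in DMSO and at 1526 and 1634 with TMP269. All values with TMP269 were below those with DMSO, and the log2 fold change was -0.54 ± 0.08 (SE), or 0.689-fold. Its paralog Rragb, not among the 9, was at 98.1 and 111 normalised reads in DMSO and at 102 and 150 with TMP269, and it was not called (log2 fold change 0.25 ± 0.22, SE, limma adjusted p = 0.429). RagA and RagB are near-identical proteins, and the sources used here do not say how reads shared by their genes were counted.

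Rragc and Rragd encode the other partner of the Rag dimer. Rragc was at 1936 and 1872 normalised reads in DMSO and at 2263 and 2220 with TMP269, a log2 fold change of 0.24 ± 0.08 (SE). The groups did not overlap, but the call was lost when any 1 of the 4 libraries was left out, with DESeq2 and with no filter on low values. Rragd was at 2234 and 2287 normalised reads in DMSO and at 3222 and 3687 with TMP269. The TMP269 libraries lay further apart than the DMSO libraries, and both were above them. The log2 fold change was 0.61 ± 0.09 (SE), or 1.52-fold, and lay between 0.51 and 0.71 with any 1 library left out.

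Tfeb and Tfe3, closely related factors with shared targets, differed in direction. Tfeb was at 554 and 519 normalised reads in DMSO and at 384 and 399 with TMP269. The groups did not overlap, and the log2 fold change was -0.45 ± 0.11 (SE), or 0.731-fold. The call was lost with equal library totals (log2 fold change -0.35), without DMSO replicate 1 (-0.40) and without TMP269 replicate 1 (-0.43). Tfe3 was at 1244 and 1254 normalised reads in DMSO and at 1474 and 1522 with TMP269, with a log2 fold change of 0.26 ± 0.08 (SE). Its groups did not overlap, but the call was lost when any 1 library was left out, with DESeq2 and with no filter on low values.

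Mitf, the family member known from melanocytes, osteoclasts and mast cells, was at a low level. It was at 31.5 and 26.5 normalised reads in DMSO and at 38.2 and 30.4 with TMP269, from 22 to 37 reads in each library. The groups overlapped and the gene was not called, with a log2 fold change of 0.23 and a 95% interval of -0.44 to 0.90. Tfec, the remaining member of the family, had 2 and 1 reads in the DMSO libraries and 0 in both TMP269 libraries. A count of 0 allows up to 3 reads, so no difference in Tfec was detectable at this depth.

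**Figure D2:**
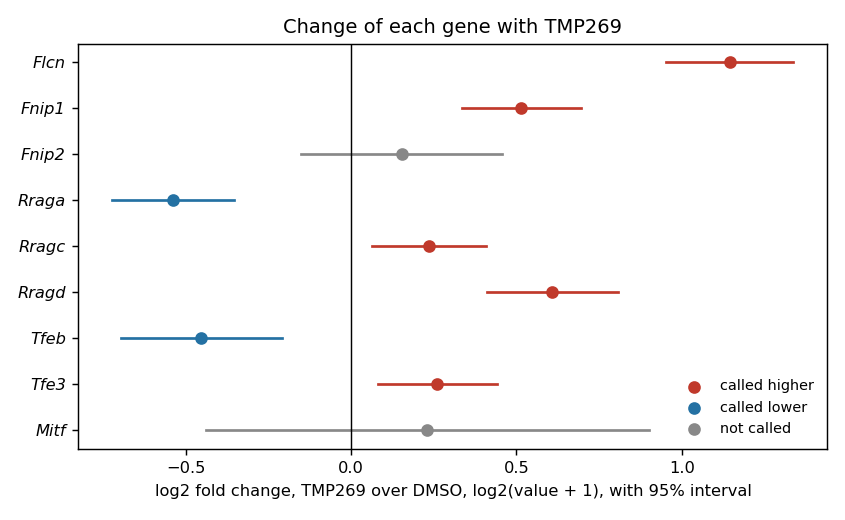
Log2 fold change of each gene, TMP269 over DMSO, on the log2(value + 1) scale (horizontal axis), with points for estimates and lines for 95% intervals from the limma fit. Flcn stands at 1.15, Rraga at -0.54 and Tfeb at -0.45, and the intervals of Fnip2 and Mitf include 0.

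The balance between related genes was compared within libraries, where the scaling of a library cancels. Transcript lengths were not used here, so a share of reads is not a share of molecules and only its change between groups can be read. Rragd took 53.6% and 55.0% of the joint reads of Rragc and Rragd in DMSO and 58.7% and 62.4% with TMP269, so that all TMP269 values were higher. The joint level of that set went from 4165 ± 8.26 to 5695 ± 299 normalised reads (SD, n = 2).

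Tfe3 took 68.0% and 69.7% of the joint reads of Tfeb, Tfe3 and Mitf in DMSO and 77.7% and 78.0% with TMP269. The Tfeb share was 29.6% ± 1.04 in DMSO and 20.4% ± 0.117 with TMP269 (SD, n = 2), and again the groups did not overlap. The joint level of these factors differed little, at 1815 ± 21.6 and 1924 ± 39.0 normalised reads.

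Rraga took 95.8% and 95.5% of the joint reads of Rraga and Rragb in DMSO and 93.7% and 91.6% with TMP269. Their joint level went from 2396 ± 95 to 1706 ± 110 normalised reads (SD, n = 2), so the joint level was lower with TMP269 too. Fnip1 took 84.9% ± 1.25 of the joint reads of Fnip1 and Fnip2 in DMSO and 87.8% ± 1.35 with TMP269, and these groups were separate by a small margin (85.7% against 86.8%).

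**Figure D3:**
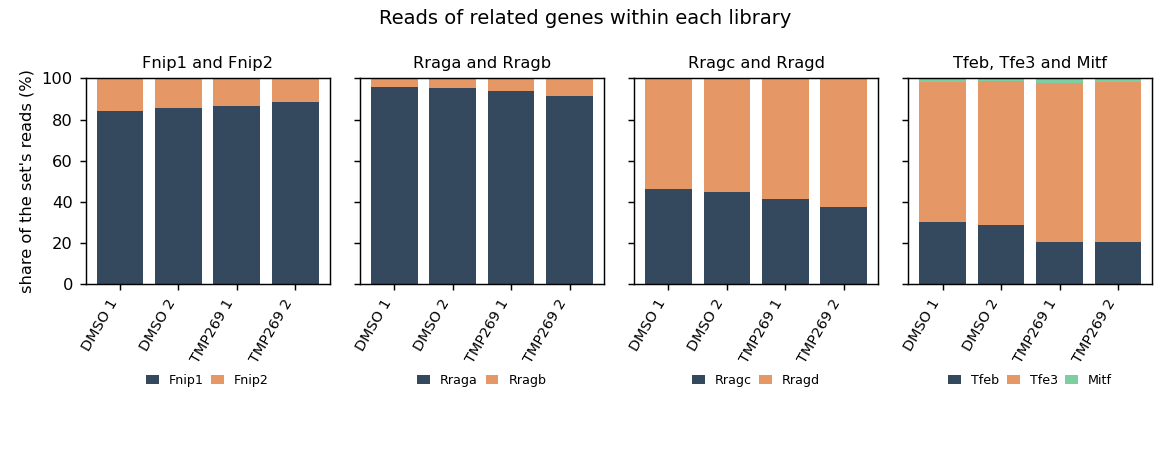
Share of reads (vertical axis, percent) of each gene within 4 sets of related genes, 1 stacked bar per library. The Tfe3 segment covers 68.0% and 69.7% in the DMSO libraries and 77.7% and 78.0% in the TMP269 libraries.

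The genes whose profile over the 4 libraries lay nearest to those of Flcn, Rragd and Rraga, the 3 with the largest absolute log2 fold change, were found among 9387 genes whose mean reached 5 CPM. Likeness was the Euclidean distance between log2(value + 1) profiles centred on their means. Nearest to Flcn were Synj2, a phosphoinositide phosphatase gene (distance 0.0566), Slc2a6, a hexose transporter gene (0.0687), and Cd97, an adhesion receptor gene (0.0843). Nearest to Rragd were Cnnm2 (0.0525), Ifi27l2a (0.0541) and Mospd2 (0.0557). Nearest to Rraga were Gemin8, a component of the SMN complex (0.0138), Guk1, the guanylate kinase gene (0.0331), and Acat1, a mitochondrial thiolase gene (0.0343). With only 4 libraries in 2 groups, such likeness rests on the difference between groups and on little else.

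Of 36 other tested genes of lysosomal nutrient sensing, mTORC1 included, 9 rose (25.0%) and 4 fell (11.1%), against 12.8% and 14.7% of all tested genes. The median log2 fold change of the 36 was 0.06. The list was chosen with earlier results of these data known, so its counts and p-values are a description. Leaving out DMSO replicate 2 gave 5 risen and 1 fallen genes, leaving out TMP269 replicate 1 gave 4 and 2, and leaving out TMP269 replicate 2 gave 2 fallen genes, as against 1 with equal library totals. Sestrin 2 (Sesn2), a stress-induced leucine sensor that restrains mTORC1, rose most, by 1.001 on the log2 scale (limma adjusted p = 4.85e-04). Its means were 1383 ± 156 and 2765 ± 227 normalised reads (SD, n = 2). Smcr8, of the C9orf72 complex whose fold resembles folliculin and FNIP, rose by 0.77 on the log2 scale (limma adjusted p = 3.89e-04), with means of 2316 ± 38.5 and 3952 ± 12.3 normalised reads. The other genes of that complex, C9orf72 (log2 fold change -0.0076) and Wdr41 (-0.10), were not called.

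Tsc1, of the complex that switches off Rheb, rose by a log2 fold change of 0.71 (limma adjusted p = 0.00157). Tsc2 (0.28) and Tbc1d7 (-0.29), of the same complex, were not called. Both were called with a replicate block, and Tsc2 also with equal library totals, with or without Rn45s. Tsc2 was called too without DMSO replicate 1 (log2 fold change 0.36) and without TMP269 replicate 2 (0.38). Depdc5, of GATOR1, the GTPase-activating complex for RagA and RagB, rose by 0.41 on the log2 scale, Wdr59 of GATOR2 by 0.35, Sesn3 by 0.36, the arginine sensor gene Slc38a9 by 0.43 and Castor2 by 0.35. Of these, the calls of Depdc5, Wdr59, Sesn3, Slc38a9 and Castor2 were each lost without at least 1 of the 4 libraries, and those of Slc38a9 and Castor2 also with DESeq2 and with no filter on low values. The arginine sensor gene Castor1 fell by 0.44 on the log2 scale, Lamtor2 of the Ragulator scaffold fell by 0.36, and Seh1l and Sec13, GATOR2 subunits that also serve the nuclear pore, fell by 0.31 and 0.28. Nprl2 (0.07) and Nprl3 (0.18) of GATOR1 were not called, nor were Mios (-0.24) and Wdr24 (-0.02) of GATOR2. In Ragulator, Lamtor1 (0.22), Lamtor3 (0.06), Lamtor4 (0.17) and Lamtor5 (-0.10) were not called. Lamtor1 was called with equal library totals, and Lamtor1 and Mios with a replicate block. The calls of Lamtor2, Seh1l and Sec13 were lost with equal library totals and without DMSO replicate 2. Those of Seh1l and Sec13 were also lost without TMP269 replicate 2, those of Lamtor2 and Sec13 without TMP269 replicate 1, and that of Lamtor2 with DESeq2. None of the 5 mTORC1 genes passed in limma, edgeR, DESeq2 or limma-voom, and 1 of them, Rptor, had an unadjusted limma p under 0.05 (log2 fold change 0.25, adjusted p = 0.0851). Rptor was called without DMSO replicate 1 (log2 fold change 0.36, limma adjusted p = 0.0262) and with equal totals without Rn45s (0.35, limma adjusted p = 0.0488), and Rptor, Mtor and Mlst8 were called with a replicate block (limma adjusted p = 0.00257, 0.0211 and 0.0466).

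**Figure D4:**
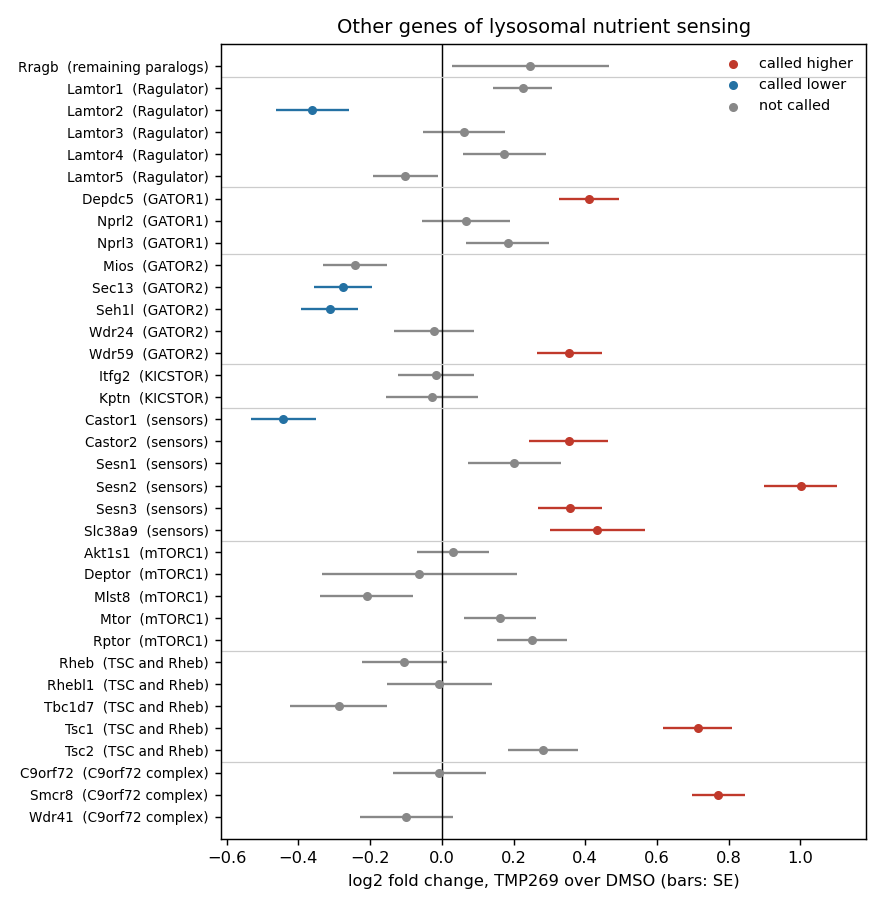
Log2 fold change, TMP269 over DMSO (horizontal axis), of 35 of the 36 other tested genes of lysosomal nutrient sensing, grouped by complex, with SE bars. Sesn2 at 1.001, Smcr8 at 0.77 and Tsc1 at 0.71 lie furthest to the right, and Castor1 at -0.44 furthest to the left.

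Known targets of TFEB and TFE3 were mostly higher. Of 43 tested lysosomal and autophagy targets, 29 rose (67.4%, against 12.8% of all tested genes) and 0 fell (against 14.7%). These targets were likewise chosen with earlier results of these data known, so their counts and p-values are a description. None had an unadjusted limma p under 0.05 in the lower direction, and edgeR, DESeq2 and limma-voom also called 29 higher and 0 lower. The median log2 fold change of the list was 0.41, and the number that rose was 23 to 28 with any 1 library left out. Gpnmb, a lysosomal membrane glycoprotein gene, had means of 44.1 ± 2.51 and 156 ± 29.2 normalised reads (SD, n = 2) and rose by 1.79 on the log2 scale (limma adjusted p = 9.92e-04). Tpp1, a lysosomal peptidase gene, had means of 1658 ± 54.5 and 3866 ± 30.8 and rose by 1.22 (limma adjusted p = 1.27e-04).

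Lysosomal membrane and transport genes among the risen targets were the cystine exporter gene Ctns (log2 fold change 1.48), Cln3 (0.93), the chloride transporter gene Clcn7 (0.88), the cholesterol exporter gene Npc1 (0.82), the calcium channel gene Mcoln1 (0.75) and Lamp1 (0.71). Of the 7 proton pump subunits in the list 5 rose, with log2 fold changes of 1.51 for Atp6v0d2, 0.66 for Atp6v0d1, 0.41 for Atp6v1b2, 0.40 for Atp6v1c1 and 0.32 for Atp6v1a, while Atp6v0e (0.16) and Atp6v1h (-0.04) were not called. Risen cathepsin genes were Ctsf (1.12), Ctsd (0.80), Ctsa (0.68) and Ctsb (0.34). Other hydrolases and their activators that rose were Gaa (0.61), Psap (0.47), Hexa (0.465), Asah1 (0.38), Neu1 (0.36) and Scpep1 (0.31). Genes of autophagy and vesicle fusion that rose were the receptor gene Sqstm1 (0.53), Vps18 (0.50), Vps11 (0.48) and Map1lc3b (0.38). Of these, the calls of Atp6v1a, Ctsb, Hexa, Map1lc3b, Neu1, Scpep1 and Vps18 were lost without at least 1 of the 4 libraries. Those not called included Uvrag (0.03), Galns (-0.000143), Glb1 (-0.07), Gla (-0.13) and Wipi1 (-0.24). Gpnmb and Atp6v0d2 are also known from macrophages, and 6 myeloid markers summed to 487 to 496 normalised reads in DMSO and 531 to 534 with TMP269. Csf1r, Itgam, Lyz2 and Adgre1 reached at most 19.8 normalised reads in any library, Cd68, itself a lysosomal protein gene, rose 3.09-fold, and Mpeg1 fell from 363 and 378 to 244 and 180 (log2 fold change -0.82). Their part in these 2 rises was not tested. Of the 44 targets, 31 had a RefSeq promoter window, and 17 of these (54.8%) held CACGTG, against 8.09% of all 27018 genes with a window. The list is of known targets of factors that read this core, so this share is not independent of how the list was made. Among the tested targets with a window, 10 of 17 with CACGTG and 10 of 13 without it rose.

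**Figure D5:**
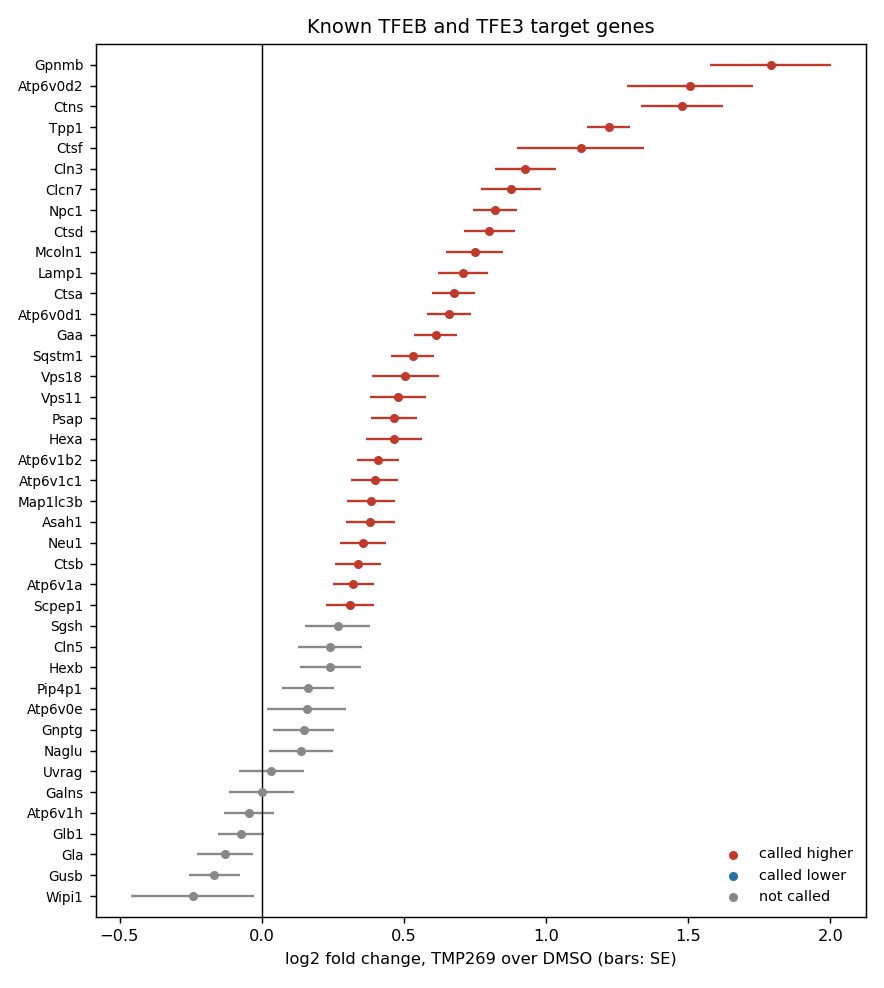
Log2 fold change, TMP269 over DMSO (horizontal axis), of 41 of the 43 tested TFEB and TFE3 targets in order of size, with SE bars. The 27 called genes drawn all lie above 0, from Scpep1 at 0.31 to Gpnmb at 1.79.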

How the data were processed

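Of the 10 samples, the 4 RNA libraries (2 DMSO, 2 TMP269) were used; 6 chromatin libraries were not analysed here. The deposited values are a normalised signal: multiplying each library by its own factor gave whole reads (within 1e-06) for 100% of values, so the authors had divided counts by 1 size factor per library. The submitters' processing notes name build mm9 and, without roles, HTSeq, DESeq2, Bowtie2, TopHat2 2.1.0 and CASAVA 1.4. The sources used here do not give the annotation, strand setting or rules for multi-mapping reads.

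Genes that reached 10 in 2 or more libraries entered limma (3.58.1, R 4.3.3) with a mean-variance trend on log2(value + 1), two-sided, without covariates. Fold changes on this scale understate those of low genes. An exact test of 2 against 2 could not pass 0.05, so calls rest on the spread shared across genes. The script was tested on simulated data. Alternatives were edgeR (4.0.16, 3406 genes called) and DESeq2 (1.42.0, 2866) on recovered reads, limma-voom, equal library totals, other pseudocounts and filters, a replicate block and each library left out in turn; equal totals without Rn45s were added after seeing the data.

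The members and both gene lists were chosen with earlier results of these data known. Of 39 pathway genes 37 were found by symbol or older symbol, and of 44 targets 44; Tfec and Ppargc1a did not pass the filter. All 9 members passed it. The genes named were all members, called list genes, a part of the uncalled list genes, among them complex partners of called genes, and the 3 nearest profiles of 3 members. A few list genes are counted but not reported here by name. Replicates differed by more than sampling noise (chi-square per degree of freedom 17.9 and 9.37).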

Additional observations from a re-analysis of the deposited data

How the results depend on the processing

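With equal library totals the median over all tested genes moved on the log2 scale from -0.00365 to 0.10, and the share of higher genes among calls from 46.5% to 67.3% (65.7% without Rn45s). Genes called lower then numbered 1042, or 1151 without Rn45s, and other pathway genes called lower 1 with either scaling, while 1 member, Rraga, was called lower with equal totals. With DESeq2, and with no filter on low values, 3 members were called higher. Leaving out 1 library at a time gave 1063 to 1802 genes higher and 1015 to 1873 lower, members 3 higher in each case and 1 to 2 lower, and other pathway genes 4 to 9 higher and 1 to 4 lower. In these fits a group's single library borrows the spread of the other group. No member changed direction under any alternative run; of their values under these alternatives 110 kept their side of the threshold and 15 lost the call, all of Tfe3, Rragc and Tfeb. The causes were not tested.

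Replicate numbers are shared between groups, but the labels do not say that they mark a common batch. Same-numbered libraries deviated together across genes (r = 0.371), with only 2 numbers. A replicate block raised the calls to 3008 higher and 3352 lower genes, other pathway genes to 13 higher and 7 lower and target genes to 33 higher and 1 lower, Gusb; it left 5 members higher and 2 lower. Shares within a library do not depend on its scaling. Depth limited Mitf and Tfec.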
